A study of Bubalus bubalis with 8 samples.

Results

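Blastocyst formation in buffalo (Bubalus bubalis) was examined by setting the library of the blastocyst against the library of the morula, the stage just before it. These are 2 of the 8 libraries of the series, 1 per stage. The embryos came from parthenogenetic activation in vitro, in which an oocyte develops without sperm, so both stages carry maternal genomes alone. The other libraries, used here for context, are the GV oocyte (immature), the MII oocyte (mature) and embryos of 2, 4, 8 and 16 cells. The series is described as single-cell sequencing, but the sources used here do not say whether a library holds a cell, an embryo or several embryos, or give breed and age.

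Values are FPKM, fragment counts scaled to transcript length and to the fragments mapped in the library, in a table of 28659 gene IDs. Numbered IDs, such as gene8824, are 18220 of these, and they are described first. The remaining 10439 IDs carry the authors' label for new genes. Of the 18220 numbered IDs, 6750 reached 10 FPKM in the blastocyst or the morula library and were compared. An ID counted as higher or lower when its log2(FPKM + 1) values lay at least 2 units apart, about 4-fold for an abundant ID and more than that for a low one.

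At the morula stage the cells of a mammalian embryo compact and begin to polarise. In the blastocyst an outer epithelium, the trophectoderm, seals itself with tight junctions and pumps ions and water inward to open a cavity, and an inner cell mass is left at one side. The trophectoderm is known for forming the fetal part of the placenta, and the inner cell mass for forming the fetus. Much of the oocyte's stored RNA has by then been replaced by RNA made from the embryo's own genome, and in parthenogenetic embryos genes expressed only from the paternal copy are known to lack their active copy.

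The IDs could not be paired with gene names. None of the 28659 IDs (0) matched a gene ID, locus tag, symbol, synonym or accession of the RefSeq buffalo table (assembly NDDB_SH_1). Markers of trophectoderm, inner cell mass, primitive endoderm, blastocoel transport and junctions, imprinting, oocyte and cumulus cells, 53 genes in 7 lists, therefore had 0 members found. The stage labels could not be checked against markers, and the parts of the 2 cell lineages in any difference below were not tested. Genes are described as groups of IDs, with 4 IDs given by number.

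The blastocyst and morula libraries had fewer detected numbered IDs and more IDs at 0 than the earlier ones. Numbered IDs at 1 FPKM or more were 10853 in the blastocyst and 9953 in the morula, against 10950 to 12003 in the 6 earlier libraries. Of the numbered IDs, 24.5% were listed at exactly 0 in the blastocyst and 30.1% in the morula, against 12.2% to 21.9% earlier. The FPKM column summed to 2239886 in the blastocyst and 2501133 in the morula, against 892286 to 1162574 earlier. Read depth is unknown, so an ID listed at 0 may have been missed, and the part of library quality in the differences was not tested.

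More numbered IDs were higher in the blastocyst than lower. With values as deposited, 758 of the 6750 IDs were higher (11.2%) and 398 were lower (5.9%), while 5594 (82.9%) differed by less than the rule asks. Median-of-ratios scaling divides each library by its median ratio to an average of the 8 libraries. That median is taken over the 11218 IDs above 0 in all 8, new-gene IDs included. With this scaling, 6879 numbered IDs were compared, 838 were higher (12.2%) and 339 were lower (4.93%). This scaling moved the blastocyst by 0.12 log2 units relative to the morula. All 758 IDs higher as deposited were also higher after scaling, and 337 of the 398 lower IDs were also lower. There is no replicate, so these counts describe 2 libraries and have no test. If a library holds more than 1 cell, which the labels leave unsaid, fewer cells of a type and less RNA per cell cannot be told apart.

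The tail and the centre of the distribution pointed in opposite directions. The median difference, blastocyst minus morula, was -0.32 log2 units over the 6750 IDs, with quartiles of -1.05 and 0.70. Most IDs, 4057 (60.1%), had a lower value in the blastocyst. The 5th percentile was -2.10 and the 95th was 3.39, so the larger differences were mostly gains. After median-of-ratios scaling the median was -0.18, and 55.9% of IDs were lower. A total of 3541 IDs (52.5%) lay within 1 log2 unit of each other in the 2 libraries.

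**Figure D1:**
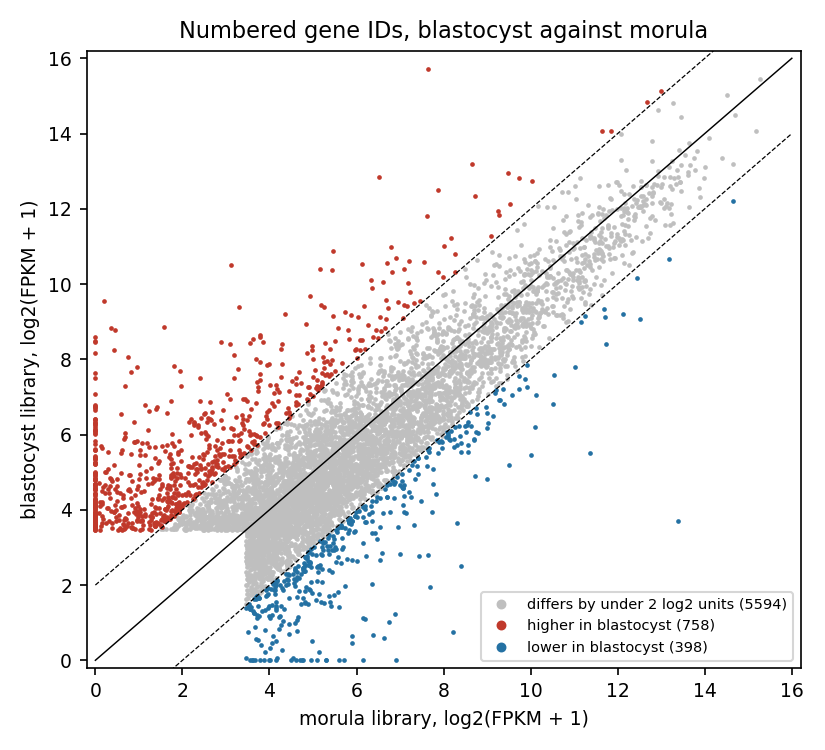
Each point is 1 of the 6750 numbered IDs compared, by its log2(FPKM + 1) in the morula (x axis) and the blastocyst (y axis); the solid line marks equal values and the dashed lines 2 log2 units. The 758 higher IDs spread further from the line than the 398 lower IDs.

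The gains were also the larger changes in size. Among the 758 higher IDs the median gain was 3.11 log2 units, and 405 passed 3 units. For 40 of them the gain was 6 units or more. Among the 398 lower IDs the median loss was 2.49 log2 units. Of these, 282 lay between 2 and 3 units, 116 passed 3 units, and 5 reached 6 units or more. The rule cuts through a dense part of the distribution, since 191 IDs missed the lower call by at most 0.25 units and 91 missed the higher call by at most 0.25 units. The nearest higher ID inside the threshold differed by 2.0004 units and the nearest outside by 1.9955 units.

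Gains outnumbered losses at every level of abundance. IDs were grouped by the larger of their 2 values. From 10 to 30 FPKM, 339 of 2533 were higher (13.4%) and 149 lower (5.88%). From 30 to 100 FPKM, 224 of 2018 were higher (11.1%) and 122 lower (6.05%). From 100 to 1000 FPKM, 157 of 1680 were higher (9.35%) and 109 lower (6.49%). At 1000 FPKM or more, 38 of 519 were higher (7.32%) and 18 lower (3.47%).

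The 758 higher IDs together made up 14.1% of the blastocyst FPKM sum, against 1.52% of the morula sum. The most abundant ID of the blastocyst, 1 of these higher IDs, held 2.40% of the sum there. The 398 lower IDs made up 0.85% of the blastocyst sum, against 5.20% of the morula sum. Both sets were picked for their difference between these libraries, so the direction of these shares is part of the choice. IDs that differed by less than 2 log2 units held 82.9% in the blastocyst and 91.4% in the morula. Because FPKM is a relative measure, a larger share for some IDs lowers the values of others, and the table does not give RNA per embryo.

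Among the higher IDs, 247 were under 1 FPKM in the morula and at 10 FPKM or more in the blastocyst, and 124 of them were listed at 0 in the morula. Among the lower IDs, 50 were under 1 FPKM in the blastocyst, 20 of them listed at 0. After median-of-ratios scaling these counts were 276 gained and 48 lost. The gained IDs were mostly of modest abundance, with a median of 18.7 FPKM and a highest value of 755 FPKM in the blastocyst. Of the 247, 90 had reached 10 FPKM in at least 1 of the 6 earlier libraries and 48 were under 1 FPKM in all 6. By their level in the oocyte, in the classes defined further on, 68 of the 247 were oocyte-expressed, 84 intermediate and 95 new to the embryo. Over all compared IDs the shares of these classes were 68.8%, 20.9% and 10.3%. Asking for under 1 FPKM in the morula leaves out oocyte-expressed IDs still at their oocyte level there, which favours new IDs. The 50 lost IDs had a median of 19.7 FPKM in the morula, and 22 of them were new to the embryo, beside 10.3% of all compared IDs.

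FPKM was more concentrated in the blastocyst. Its most abundant ID held 2.40% of the sum, against 1.57% for the most abundant ID of the morula. The 10 most abundant IDs held 14.0% in the blastocyst and 9.97% in the morula, and the 100 most abundant held 43.6% in the blastocyst and 40.6% in the morula. A share of 50% of the sum was reached with 135 IDs in the blastocyst and 152 in the morula. Deeper in the ranking the libraries converged. The 1000 most abundant IDs held 87.1% in the blastocyst and 86.9% in the morula, and 90% of the sum took 1318 IDs in the blastocyst and 1314 in the morula. For context, the 10 most abundant IDs held 9.07% to 12.4% in the 6 earlier libraries, and the 100 most abundant 29.8% to 34.4%. These shares do not move with scaling of a whole library.

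**Figure D2:**
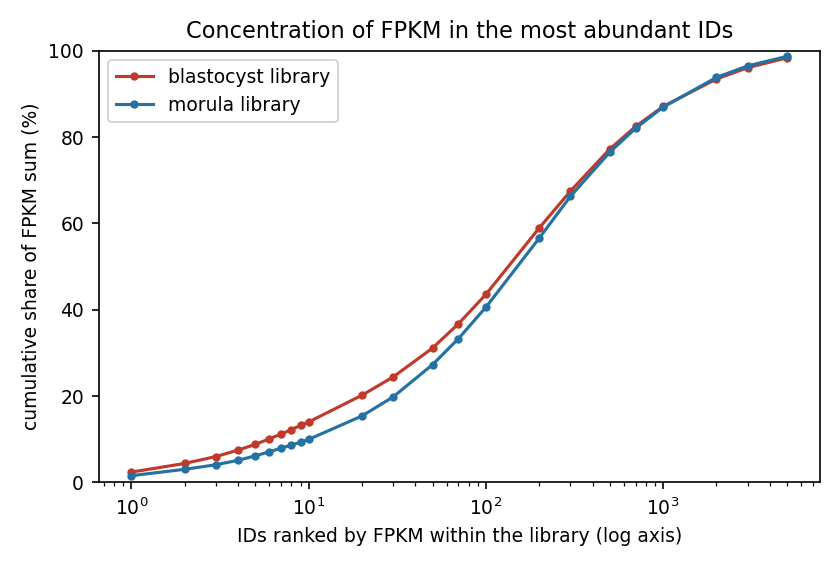
Cumulative share of the FPKM sum (y axis, percent) against the number of IDs taken from the most abundant down (x axis, log scale), for the blastocyst and morula libraries, all 28659 IDs. The blastocyst curve is above at 10 IDs (14.0% against 9.97%) and the curves meet near 1000 IDs (87.1% against 86.9%).

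The leading IDs of the libraries behaved differently. The most abundant ID of the blastocyst stood at 53665 FPKM, against 199 FPKM and rank 1313 in the morula. Earlier it was listed at 0 (GV), 1.73 (MII), 0.20 (2-cell), 0 (4-cell), 173 (8-cell) and 5.18 FPKM (16-cell). Its blastocyst value is far above those of all 7 other libraries. The most abundant ID of the morula changed little, with 44987 FPKM in the blastocyst and 39182 FPKM in the morula. Leaving out both of these IDs, the 10 most abundant held 11.6% in the blastocyst and 9.15% in the morula.

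The top of the ranking was largely made of the same IDs. The lists of the 100 most abundant IDs shared 69 IDs (69 of 100 in each library), and the lists of the 10 most abundant shared 3. All of these top IDs were numbered. By the rule of size, 12 of the blastocyst's 100 were higher there and 1 was lower, while 87 differed by less. Of the morula's 100, 5 were lower in the blastocyst, 2 were higher and 93 differed by less. Of the 10 most abundant in the blastocyst, 4 were higher by the rule. Since each list was picked for high values in its own library, its direction is part of the choice.

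The top IDs were also sorted by their level in the oocyte. An ID is called oocyte-expressed here when it had at least 10 FPKM in the GV or the MII library, new to the embryo when it was under 1 FPKM in both, and intermediate otherwise. Among the blastocyst's 100 most abundant IDs, 75 were oocyte-expressed, 22 were new to the embryo and 3 were intermediate. Among the morula's 100, 78 were oocyte-expressed, 18 new and 4 intermediate. For comparison, 437 of the 519 numbered IDs at 1000 FPKM or more in either library were oocyte-expressed and 59 were new, and over all compared IDs the shares were 68.8% and 10.3%. The GV oocyte had 7.96% of its FPKM sum in the blastocyst's 100.

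Of the 6750 numbered IDs compared, 4644 were oocyte-expressed, 1408 (20.9%) intermediate and 698 new to the embryo. In absolute numbers the oocyte-expressed IDs were the largest class in both directions. They were 333 of the 758 higher IDs (43.9%) and 238 of the 398 lower IDs (59.8%). IDs new to the embryo were 203 of the higher (26.8%) and 74 of the lower (18.6%). The intermediate IDs were 222 of the higher and 86 of the lower. This split depends on scaling. Rescaling each library to the same sum raises the oocyte values relative to the morula and blastocyst. Oocyte-expressed IDs were then 461 and new IDs 164 of 837 higher, and 191 and 57 of 310 lower.

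As a share of its class, change was more frequent among IDs new to the embryo. Of the 698 new IDs, 29.1% were higher and 10.6% lower in the blastocyst, beside a background of 11.2% and 5.9% over all compared IDs. Of the 4644 oocyte-expressed IDs, 7.17% were higher and 5.12% lower, and of the intermediate IDs 15.8% were higher and 6.11% lower. With median-of-ratios scaling, 30.3% of new IDs and 7.57% of oocyte-expressed IDs were higher, and 9.87% of new IDs and 3.90% of oocyte-expressed IDs were lower. The median difference was 0.38 log2 units for new IDs, -0.09 for intermediate IDs and -0.44 for oocyte-expressed IDs. After scaling these medians were 0.54, 0.08 and -0.32, so that of the intermediate IDs changed sign. The choice of IDs favours this order in part. A new ID was under 1 FPKM in the oocytes, so it had to rise to 10 FPKM in the morula or blastocyst to be compared. The blastocyst was the first library at that level for 154 of the 203 higher new IDs and 58 of the 421 that differed by less. How much of the contrast comes from this was not tested.

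This order of the classes was looked at within levels of abundance, since new IDs were more often of low abundance. From 10 to 30 FPKM, 31.0% of 339 new IDs and 8.84% of 1358 oocyte-expressed IDs were higher in the blastocyst. From 30 to 100 FPKM the shares were 32.2% of 174 new IDs and 7.04% of 1448 oocyte-expressed IDs. From 100 to 1000 FPKM they were 27.8% of 126 new IDs and 6.14% of 1401 oocyte-expressed IDs. In the top level, from 1000 FPKM up, the shares were 11.9% of 59 new IDs, which is 7 IDs, and 5.72% of 437 oocyte-expressed IDs. Of the intermediate IDs, the share that was higher was 13.6%, 16.7%, 23.5% and 26.1% from the lowest level to the top one. New IDs thus had a larger share than oocyte-expressed IDs at each of the 4 levels, but at the top level the intermediate IDs, 23 in all, had the largest share of higher (6 IDs) and of lower (5 IDs, 21.7%). The choice of IDs favours a larger share for new IDs at each level too, and no test was made, with 1 library per stage.

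**Figure D3:**
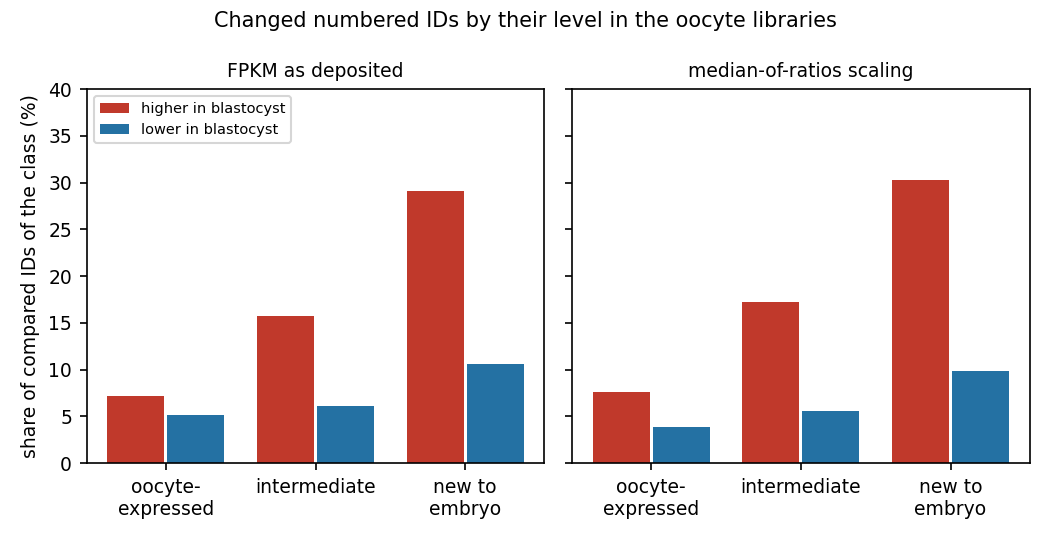
Bars give the share of compared numbered IDs (y axis, percent) that were higher or lower in the blastocyst, for each class of level in the GV and MII oocytes, as deposited (left) and after median-of-ratios scaling (right). The share of higher IDs is 29.1% for new and 7.17% for oocyte-expressed IDs as deposited, and 30.3% and 7.57% after scaling. The choice of IDs favours the larger share for new IDs in part.

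The oocyte-expressed IDs that were higher in the blastocyst had been lower along the way. In stage order their median was 27.2 (GV), 27.5 (MII), 24.0 (2-cell), 13.4 (4-cell), 15.7 (8-cell), 8.71 (16-cell), 4.83 (morula) and 51.4 FPKM (blastocyst). The morula and blastocyst values chose these 333 IDs, whereas the values of the 6 earlier libraries did not enter the rule beyond the 10 FPKM asked of an oocyte library. Against the mean of the GV and MII values, the blastocyst value was within 2 log2 units for 217 of the 333, at least 2 units above for 86 and at least 2 units below for 30. In the morula, 189 of them were at least 2 units below the oocyte mean. The blastocyst had the highest value of all 8 libraries for 179. The choice of IDs with a low morula and a high blastocyst value favours both counts.

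The oocyte-expressed IDs that were lower in the blastocyst showed no such dip in their median. It was 50.7 (GV), 43.3 (MII), 49.0 (2-cell), 58.3 (4-cell), 46.0 (8-cell), 47.8 (16-cell), 61.2 (morula) and 10.2 FPKM (blastocyst). The call asks for a morula value at least 2 log2 units above the blastocyst value. These 2 values therefore chose the IDs, and the choice favours the counts that follow. For 170 of these 238 IDs the blastocyst value was below those of all 7 other libraries. In the morula, 172 of the 238 were still within 2 log2 units of the oocyte mean, and in the blastocyst 121 were at least 2 units below it. For comparison, the 4073 oocyte-expressed IDs that differed by less had medians of 56.0 (GV), 43.5 (16-cell), 57.1 (morula) and 44.2 FPKM (blastocyst).

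**Figure D4:**
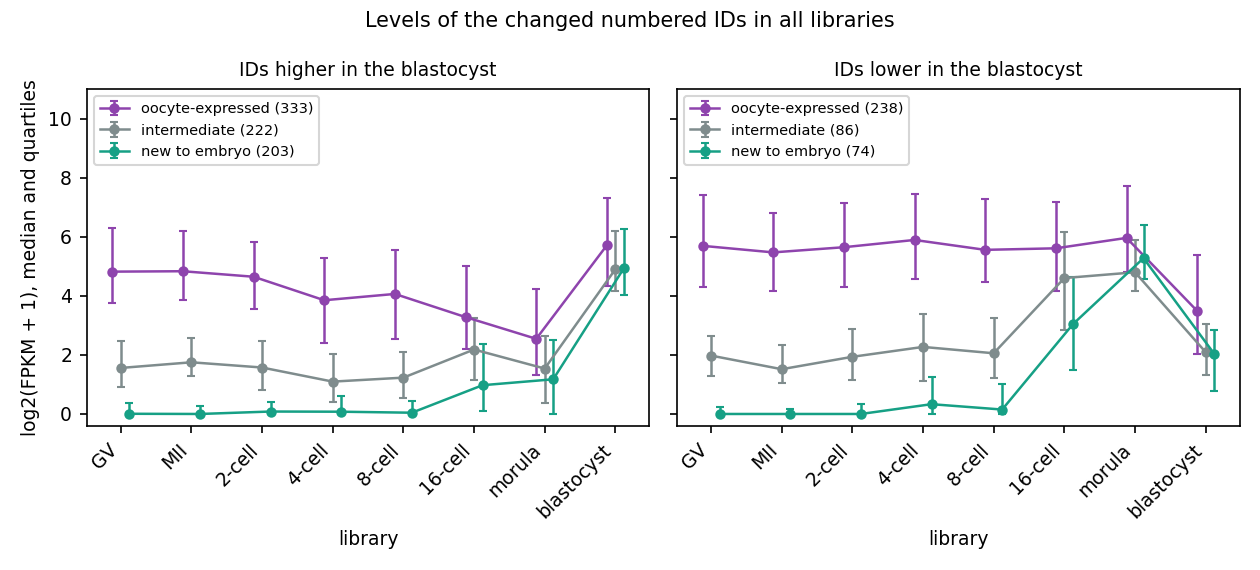
Median log2(FPKM + 1) and quartiles over IDs (points and bars, y axis) in each of the 8 libraries (x axis) for numbered IDs higher (left) or lower (right) in the blastocyst, by class of oocyte level. The median of the 333 oocyte-expressed higher IDs was 27.2 (GV), 4.83 (morula) and 51.4 FPKM (blastocyst). That of the 238 oocyte-expressed lower IDs stayed between 43.3 and 61.2 FPKM up to the morula and was 10.2 in the blastocyst. The morula and blastocyst values chose these IDs.

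IDs new to the embryo and higher in the blastocyst mostly reached 10 FPKM first there, though many had a lower value before. For 154 of the 203 (75.9%) the blastocyst was the first library at 10 FPKM or more, and earlier stages account for the rest. The morula was first for 20 IDs, the 16-cell stage for 23, the 8-cell stage for 1 and the 4-cell stage for 5. Their median was 29.5 FPKM in the blastocyst, 1.26 FPKM in the morula and 0.96 FPKM in the 16-cell embryo. Under 1 FPKM in all 6 earlier libraries were 73 of the 203. The rule favours this timing, because a higher ID must be low in the morula.

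The first library at 10 FPKM or more was also recorded for IDs new to the embryo and lower in the blastocyst. The rule limits this timing too, because a lower ID must reach 10 FPKM in the morula. For 40 of the 74 the morula was the first library at 10 FPKM or more, and the 16-cell stage came first for 27, the 8-cell stage for 3 and the 4-cell stage for 4. Their median was 0.26 (4-cell), 0.11 (8-cell), 7.20 (16-cell), 37.7 (morula) and 3.11 FPKM (blastocyst). In the blastocyst 22 of the 74 were under 1 FPKM and 16 still had at least 10 FPKM. The 86 intermediate lower IDs had medians of 3.16 (8-cell), 23.3 (16-cell), 26.8 (morula) and 3.26 FPKM (blastocyst).

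Among the new IDs that differed by less than the rule asks, 421 in all, the median was 23.2 FPKM in the blastocyst and 26.7 FPKM in the morula. The morula was the first library at 10 FPKM or more for 193 of them and the 16-cell embryo for 111. These 421 IDs accounted for 12.3% of all FPKM in the blastocyst and 11.7% in the morula. Among them, 50 reached 1000 FPKM in either library. The 203 new IDs that were higher held less, with 1.95% in the blastocyst and 0.13% in the morula, where the rule asks them to be low.

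The IDs named are the oocyte-expressed and the new ID with the greatest difference in each direction. Among higher oocyte-expressed IDs this was gene8824. Its value was 76.4 FPKM at the GV and 29.8 FPKM at the MII stage, between 10.4 and 32.6 FPKM over the 2-cell, 4-cell and 8-cell stages, and 6.84 FPKM at the 16-cell stage. It stood at 354 FPKM in the blastocyst and was listed at 0 in the morula, so no fold is given. Of the 8 libraries only the morula had it at 0, and the blastocyst value was the highest of the 8 libraries.

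Among higher new IDs the greatest difference was that of gene7820. It had 755 FPKM in the blastocyst, where it ranked 491st, against 0.14 FPKM in the morula and at most 0.41 FPKM in the 6 earlier libraries. The difference was 9.37 log2 units, or 9.50 after median-of-ratios scaling. The blastocyst was thus the only one of the 8 libraries in which gene7820 reached 1 FPKM.

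Among lower oocyte-expressed IDs the greatest difference was that of gene8923. Its earlier values were 13.2 (GV), 0 (MII), 14.9 (2-cell), 17.5 (4-cell), 0 (8-cell) and 9.75 FPKM (16-cell). It was listed at 0 in the blastocyst and at 118 FPKM in the morula. The blastocyst was thus 1 of 3 libraries at 0, the other two lying between libraries with a signal.

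Among lower new IDs the greatest difference was that of gene24198. No signal was listed up to the 4-cell stage (0 FPKM), and the ID then reached 2.36 FPKM (8-cell) and 393 FPKM (16-cell). It was at 0.68 FPKM in the blastocyst and at 296 FPKM in the morula, where it ranked 1022nd, a difference of -7.46 log2 units (-7.42 after scaling). The 16-cell and morula libraries are therefore the 2 in which gene24198 was abundant.

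**Figure D5:**
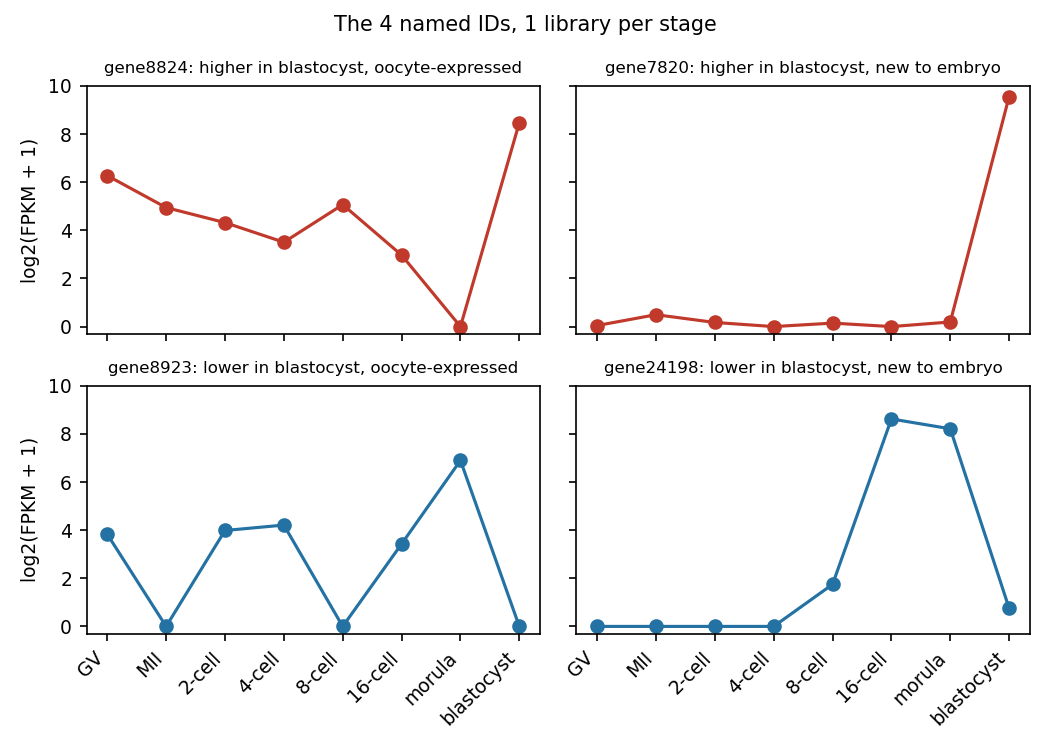
Level of the 4 named IDs, log2(FPKM + 1) on the y axis, in each of the 8 libraries (x axis), 1 library per point. gene7820 is near 0 until the blastocyst (755 FPKM), gene8824 is listed at 0 in the morula only, and gene8923 is listed at 0 in 3 libraries. gene24198 is high in the 16-cell and morula libraries (393 and 296 FPKM). An ID listed at 0 may have been missed.

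The new-gene IDs added few items to this comparison, and their balance of gains and losses depended on scaling. Of the 10439, 681 were at 1 FPKM or more in the blastocyst and 724 in the morula, and they made up 1.32% of the FPKM sum in the blastocyst and 1.34% in the morula. Of the 300 compared by the same rule, 49 were higher (16.3%) and 55 were lower (18.3%). With median-of-ratios scaling, 62 of 311 were higher and 53 lower, so the balance turned.

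Set beside the other consecutive steps, the blastocyst step was of middle size. By the same rule on numbered IDs, 17.1% differed between the blastocyst and the morula. The share was 8.88% for the MII against the GV oocyte, 3.71% for the 2-cell embryo against the MII oocyte, 9.35% for the 4-cell against the 2-cell embryo and 2.79% for the 8-cell against the 4-cell embryo. It was 47.7% for the 16-cell against the 8-cell embryo and 34.4% for the morula against the 16-cell embryo. The spread of the log2 difference, as a robust SD over IDs, was 1.24 for the blastocyst step, 2.02 for the morula step before it and 0.48 for the 8-cell against the 4-cell embryo. Consecutive steps share a library, and the difference in size between steps was not tested.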

How the data were processed

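RNA sequencing values were used for 8 libraries of buffalo oocytes and parthenogenetic embryos, 1 per stage. Stage came from each sample's title and the column from its description. The authors deposited 1 table of FPKM values, per the file's name. The extraction protocol in the labels names another tissue and was not used. The aligner, the build and the annotation were not given in the sources used here. Depth is unknown, so no counting intervals are given.

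Values were taken to log2(FPKM + 1), a pseudocount that understates folds of low IDs. Comparison was limited to IDs that reached 10 FPKM in the blastocyst or morula, by a rule of size of 2 log2 units, with no test. Median-of-ratios factors came from the 11218 IDs above 0 in all 8 libraries (0.915 for the blastocyst, 0.992 for the morula). Alternatives were another pseudocount, minimum, threshold, scaling and class definition. As a check of the code, the rule was run on simulated data made from the morula values with changes put in. The noise added was smaller than the spread of the blastocyst step, so false calls in these data were not assessed. Python 3.11.15, numpy 2.4.6, pandas 2.3.3 and matplotlib 3.10.9 were used. Members, classes and lists were chosen with earlier results of these data known. The most abundant ID of each library was described after its values were seen. The 4 named IDs were taken by a rule: the oocyte-expressed and the new ID with the greatest difference in each direction.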

Additional observations from a re-analysis of the deposited data

How the results depend on the processing

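Of 74 alternative values of the ID counts and abundance shares, 54 stayed within 1.5 times the reported value. Higher IDs outnumbered lower IDs in all 10 settings tried for the whole set of compared IDs. Median-of-ratios scaling turned the balance of the new-gene IDs (62 higher and 53 lower, against 49 and 55 as deposited) and the sign of the median of intermediate IDs (0.08, against -0.09). With a minimum of 30 FPKM, which leaves fewer IDs, 419 numbered IDs were higher and 249 lower, with 213 oocyte-expressed and 98 new IDs higher and 44 new IDs lower. With no minimum, which admits more IDs, 1177 were higher, and new IDs were 384 higher and 149 lower. A threshold of 3 log2 units gave 405 higher and 116 lower, with 144 oocyte-expressed IDs higher, 46 lower, and 39 new IDs lower. Rescaling each library to a sum of 1000000, chosen after seeing the data, gave 189 lower, with 105 oocyte-expressed and 42 new IDs lower and 126 new IDs higher; the same minimum and pseudocount then weigh more. Rescaling to the same sum after leaving out the 10 most abundant IDs of either library gave 157 oocyte-expressed IDs lower, and the cause was not tested. Asking for under 0.1 FPKM in both oocyte libraries left 109 new IDs higher and 39 lower. With numbered and new-gene IDs together, also added after seeing the data, no count moved by more than 1.5 times. Each share of the FPKM sum moved little, but the libraries lay closer without the most abundant ID of either. The 100 most abundant then held 41.4% in the blastocyst and 39.9% in the morula, against 43.6% and 40.6% with all IDs. There is no replicate to leave out, and depth is unknown, so how far counting limits low values cannot be given.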

Other observations

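Some of the most abundant IDs of the morula and blastocyst that the oocytes lacked had a brief earlier appearance. The set was picked after its values were seen: numbered IDs under 1 FPKM in both oocyte libraries, at least 10 FPKM in the 4-cell embryo, under 10 FPKM in the 16-cell embryo and at least 1000 FPKM in the blastocyst or the morula. It held 28 IDs, of the 59 IDs new to the embryo that reached 1000 FPKM in either library. Over the 28 the median was 0 at the GV, MII and 2-cell stages, then 34.7 (4-cell), 6.24 (8-cell), 1.08 (16-cell), 3508 (morula) and 3062 FPKM (blastocyst). As a share of all FPKM the 28 made up 6.61% in the blastocyst and 6.72% in the morula, against 0.253% in the 4-cell and 0.00296% in the 16-cell embryo. By the rule of size 27 of the 28 did not differ between the blastocyst and the morula, and 1 was higher in the blastocyst, beside 50 of the 59 new IDs at this level and 82.9% of all compared IDs that did not differ. The highest 16-cell value among the 28 was 3.40 FPKM, and the lowest value was 694 FPKM in the blastocyst and 713 FPKM in the morula. The rule fixed the low oocyte values, the 4-cell value of at least 10 FPKM and the low 16-cell value. It also fixed an abundant value in the blastocyst or the morula, so the profile is a description of IDs picked for it.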
